A study of Mus musculus with 24 samples.

Results

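The 10 genes described here belong to the Hedgehog pathway and to the regulators of lung mesenchyme: the ligand Shh, the receptor Ptch1, the ligand-binding inhibitor Hhip, the effectors Gli1 and Gli2, the forkhead factor Foxf1 and the T-box factors Tbx2, Tbx3, Tbx4 and Tbx5. They were chosen by gene symbol, with earlier results of these data known, and all 10 were found among the 48795 gene identifiers of both expression tables. All mice were female Balb/c, aged 8 weeks. Sham mice had a sham irradiation plus an IgG control antibody, irradiated mice received 13 Gy to the lungs plus the same IgG, and depleted mice received 13 Gy plus a daily anti-Ly6G antibody, directed at a neutrophil surface protein. Lungs were collected 7 days after irradiation. Cells lacking CD45, CD31 and Ter119 were sorted into an EpCAM+ fraction, called epithelium here, and an EpCAM- fraction, called mesenchyme; the protocol text names CD45 again where the cell type entries list CD31. Each of the 6 groups holds 4 libraries, 24 in all. The labels do not say whether the libraries of both fractions came from the same mice, and there was no group with depletion alone, so the comparison of depleted with sham mice combines both treatments.

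Hedgehog signalling starts when a secreted ligand such as Shh binds Ptch1, which relieves the block on Smo and lets Gli factors enter the nucleus. Ptch1, Hhip and Gli1 are themselves targets of the pathway, and Hhip holds back the ligand. In the developing lung, Shh comes from the epithelium and acts on the mesenchyme, where Foxf1 is one of its targets, while Tbx2, Tbx3, Tbx4 and Tbx5 mark the lung mesenchyme and act in branching and growth.

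The values are normalised counts, read counts per gene divided by a size factor for each library, and each fraction has its own scale. The epithelial libraries held 8159062 to 13373329 recovered reads each, and the mesenchymal libraries 7366672 to 11408083. A count of 0 allows up to 3 reads, which corresponds to a normalised count of 2.36 to 3.81 in the epithelium and 2.48 to 3.66 in the mesenchyme. The fractions carried their own markers: Epcam lay at 1002 to 1181 in the epithelial libraries and at 1.01 to 29.7 in the mesenchymal ones. Fibroblast RNA was present in the epithelial libraries too, with Pdgfra, a fibroblast receptor, at 937 to 1548. Endothelial RNA was present in both fractions, as Pecam1, the gene of CD31, lay at 124 to 502 in the epithelium and at 157 to 780 in the mesenchyme. In such sorted bulk samples, fewer cells of a type and less RNA per cell cannot be told apart.

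The genes lie on 6 chromosomes of GRCm38. Tbx2 (ENSMUSG00000000093, chr11:85832551-85841948) and Tbx4 (ENSMUSG00000000094, chr11:85886422-85916097) are neighbours on the plus strand. Tbx3 (ENSMUSG00000018604, chr5:119670669-119684724) and Tbx5 (ENSMUSG00000018263, chr5:119832668-119885219) are both on the plus strand, and Shh (ENSMUSG00000002633, chr5:28456815-28467256) is on the minus strand of that chromosome. Foxf1 (ENSMUSG00000042812, chr8:121084386-121088144) is on the plus strand and Hhip (ENSMUSG00000064325, chr8:79965851-80058006) on the minus strand. Gli1 (ENSMUSG00000025407, chr10:127329882-127341974), Gli2 (ENSMUSG00000048402, chr1:118834132-119053619) and Ptch1 (ENSMUSG00000021466, chr13:63508328-63573598) are on the minus strand. All 10 code for proteins. Several have a gene on the other strand that starts close by: the non-coding Fendrr starts 1276 bases from Foxf1, and 2610027K06Rik starts 328 bases from Tbx2. The strand setting of the counting is not given in the sources used here, so reads of transcripts that overlap on opposite strands (Tbx3os1 with Tbx3, 9530036O11Rik and Gm26894 with Shh, the end of Arhgap9 with that of Gli1) cannot be told apart.

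A pair of upstream windows is shown because the results below turn on their genes: that of Fendrr, which lies between the divergent starts of Fendrr and Foxf1, and that of Ptch1, the receptor and target of the pathway. Both are the 250 bases before a start in RefSeq on GRCm38.p6, read along the minus strand of their gene, at chr8:121083111-121083360 for Fendrr and chr13:63565736-63565985 for Ptch1. The Ptch1 window lies before a RefSeq start that is inside the longer annotated gene, and it overlaps 0 annotated exons. Capitals mark the forkhead core letters GTAAACA.
Fendrr: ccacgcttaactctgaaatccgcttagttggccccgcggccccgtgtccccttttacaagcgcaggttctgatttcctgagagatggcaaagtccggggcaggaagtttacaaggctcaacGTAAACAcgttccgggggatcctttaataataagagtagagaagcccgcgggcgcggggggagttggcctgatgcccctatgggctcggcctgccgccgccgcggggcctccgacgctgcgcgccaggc
Ptch1: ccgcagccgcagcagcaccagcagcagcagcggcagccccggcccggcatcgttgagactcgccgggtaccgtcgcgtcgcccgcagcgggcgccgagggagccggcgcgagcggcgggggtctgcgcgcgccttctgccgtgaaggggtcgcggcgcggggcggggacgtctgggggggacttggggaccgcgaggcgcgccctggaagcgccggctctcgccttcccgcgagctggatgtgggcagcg
The GC content was 62.0% for Fendrr and 78.4% for Ptch1. Letters were searched in the whole RefSeq promoter windows, which are longer than the 250 bases printed. GTAAACA, searched on both strands (TGTTTAC on the other), was found in 3.65% of 32851 such windows, and among the 5 of these genes and their neighbours (Gli2, Hhip, Fendrr, Tbx4 and Ptch1) only in that of Fendrr. The Gli letters GACCACCCA (TGGGTGGTC on the other strand) were in 0.253% of all windows and in 0 of these 5. A match of letters is a description of the window and not a binding site.

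In the mesenchyme of sham mice, Tbx2 stood highest of the 10 genes per kilobase of exon, at 1358 ± 131 normalised counts per kb (SD, n = 4). Hhip followed at 894 ± 271 and Tbx4 at 609 ± 68.5, and the ranges of Hhip and Tbx4 overlapped. Tbx5, Foxf1 and Ptch1 came next at 232, 231 and 229 per kb and did not differ beyond their spread. Tbx3 (107) and Gli1 (105) overlapped as well, Gli2 was lower at 62.6, and Shh was last at 0.574. The order differed in the epithelium of sham mice. Ptch1 led at 81.0 ± 5.10 per kb, above Tbx2 at 72.5 ± 3.40, which overlapped with Shh at 67.4 ± 7.59. Tbx4 at 31.4 and Foxf1 at 20.1 followed, then Tbx5, Hhip, Tbx3 and Gli1 between 6.08 and 10.2 with each range overlapping the next, and Gli2 at 3.70. With the length of the longest transcript in place of all exons, Ptch1 moved from rank 6 to rank 4 in the sham mesenchyme.

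**Figure D1:**
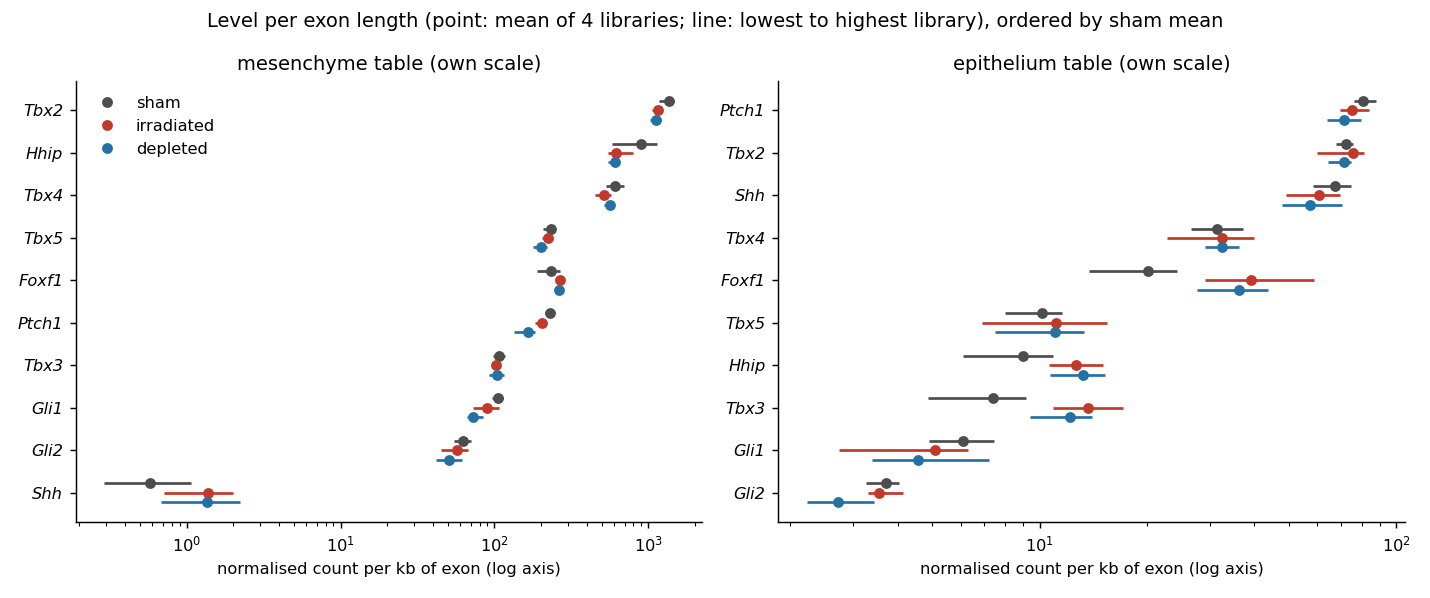
Normalised count per kb of exon (log axis) for each gene in the mesenchymal and the epithelial table, with the mean of 4 libraries as a point and the lowest to highest library as a line. Tbx2 leads in the mesenchyme and Ptch1 leads in the sham epithelium, and Shh is last in the mesenchyme and near Tbx2 in the epithelium.

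Because the tables have separate scales, each gene was also set against the summed level of 14 pan-mesenchymal markers of the same library, a description chosen after the values were seen. In sham mice, Shh stood at 9.17 ± 1.25 per 1000 of that sum in the epithelium and at 0.00608 ± 0.00435 in the mesenchyme (SD, n = 4). Ptch1 stood at 54.8 ± 3.61 in the epithelium and at 11.4 ± 0.879 in the mesenchyme. Shh and Ptch1 had non-overlapping sham libraries with the higher share in the epithelium. For 5 genes the sham libraries did not overlap either and the share was lower in the epithelium: Hhip (3.87 against 29.5 in the mesenchyme), Tbx2 (12.5 against 17.3), Tbx4 (5.08 against 7.24), Tbx5 (2.26 against 3.85) and Gli2 (1.08 to 1.33 against 1.42 to 1.64). The remaining 3 overlapped between fractions: Foxf1 stood at 2.31 in the epithelium and 2.00 in the mesenchyme, Tbx3 at 2.33 and 2.53, and Gli1 at 1.45 and 1.85. In the depleted epithelium the shares of Foxf1 (2.59 to 4.02), Tbx3 (2.42 to 3.33) and Hhip overlapped with sham. The irradiated shares of Foxf1 and Tbx3 lay above sham. In the depleted mesenchyme Tbx2, Tbx4, Tbx5, Gli1, Gli2 and Ptch1 lay below all sham libraries, and Foxf1, Tbx3, Hhip and Shh overlapped with sham. The shares were not tested.

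The ligand was the gene of the EpCAM+ cells. Shh had normalised counts of 181, 167, 207 and 212 in the epithelium of sham mice, 199, 193, 162 and 139.9 after irradiation, and 140.3, 201, 175 and 136 with depletion. These ranges overlap, and no comparison passed the test, with a log2 change of -0.15 ± 0.137 (SE) after irradiation (adjusted p = 0.695) and -0.24 ± 0.137 between depleted and sham (adjusted p = 0.286; limma with Benjamini-Hochberg adjustment over 16626 genes, as for all epithelial tests). In the mesenchyme Shh had 0.832 to 6.30 normalised counts over all 12 libraries, at or near the limit set by 0 reads, and it failed the filter on low counts, so 9 of the 10 genes were tested there. The non-coding genes on its other strand, Gm26894 and 9530036O11Rik, had 56.6 to 96.5 in the epithelium, and 0 called changes.

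In the mesenchyme, irradiation alone moved none of the 9 tested genes past the threshold, and depleted mice had lower Gli1, Ptch1 and Tbx2 than sham mice. Between irradiated and sham mice 0 of 9 were called by limma, edgeR and DESeq2 alike, 4 of them at an unadjusted p under 0.05, against 3.80% of all 16624 genes called, and for 0 of 9 the groups did not overlap, against 11.8% of all genes. Between depleted and sham mice 3 of 9 were called, all lower, against 15.2% of all genes called and 6.70% called lower, and the median log2 change of the 9 was -0.27 beside -0.01 over all genes. Between depleted and irradiated mice the count was 0 of 9 with each tool, with 2 at an unadjusted p under 0.05, against 2.69% of all genes, and 1 (Ptch1) had groups that did not overlap, against 10% of all genes (1666 of 16624). The 3 comparisons share their groups, so their values are set side by side and not as independent results.

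Ptch1, the receptor, stood at 3049, 3011, 3464 and 3460.1 normalised counts in the mesenchyme of sham mice. The irradiated libraries had 2927, 2599, 3123 and 2838. The depleted libraries had 2399, 2525, 2599 and 1905. Every depleted library was below every sham library, and below every irradiated one, although the closest pair (depleted replicate 3 and irradiated replicate 2) differed by under 1 normalised count, while irradiated and sham libraries overlapped. Ptch1 was lower by -0.47 ± 0.0967 on the log2 scale in depleted than in sham mice (0.723-fold, adjusted p = 0.00428). The change was -0.18 ± 0.0967 between irradiated and sham (adjusted p = 0.32) and -0.29 ± 0.0967 between depleted and irradiated (adjusted p = 0.122).

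Gli1, the transcription factor that is both effector and target of the pathway, had 483, 527, 571 and 523 in sham mice. It had 537, 364, 506 and 374 in irradiated mice. It had 336, 419, 370.1 and 331 in depleted mice. The irradiated libraries fell into a pair within the sham range and a pair within the depleted range, and the depleted libraries lay entirely below the sham libraries. Gli1 was lower by -0.53 ± 0.122 in depleted than in sham mice (0.691-fold, adjusted p = 0.00854), with changes of -0.26 ± 0.122 for irradiated against sham (adjusted p = 0.238) and -0.28 ± 0.122 for depleted against irradiated (adjusted p = 0.249). The calls of Ptch1 and Gli1 between depleted and sham mice held when each of the 12 libraries was left out in turn and under the other settings tried, with adjusted p up to 0.0198 and 0.0335. Among the 9 tested genes these were the 2 whose depleted and sham libraries did not overlap, against 19.3% of all genes.

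Hhip, the inhibitor that binds the ligand, varied most among the sham libraries. It had 10246, 10100.0, 6814 and 5297 normalised counts in sham mice. It had 4945, 5167, 7186 and 5087 after irradiation and 5681, 5574, 5807 and 4964 with depletion. A pair of sham libraries stood far above all others, and the remaining pair reached into the range of the treated mice. The log2 change was -0.50 ± 0.194 after irradiation (adjusted p = 0.166) and -0.51 ± 0.194 between depleted and sham (adjusted p = 0.101), and neither was called. The result turned on sham replicate 4: without it the changes were called, at -0.69 (adjusted p = 0.0369) and -0.70 (adjusted p = 0.0105), and DESeq2 called the depleted against sham change of Hhip with all libraries (-0.56, adjusted p = 0.018).

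Gli2, the Gli factor that carries most of the activating signal, ranged over 377 to 486 (sham), 307 to 460.1 (irradiated) and 285 to 424 (depleted). The 3 ranges overlapped and the change of -0.31 ± 0.135 between depleted and sham was not called (adjusted p = 0.14). Without depleted replicate 3, the highest of its group, the change of Gli2 was -0.41 (adjusted p = 0.0452).

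**Figure D2:**
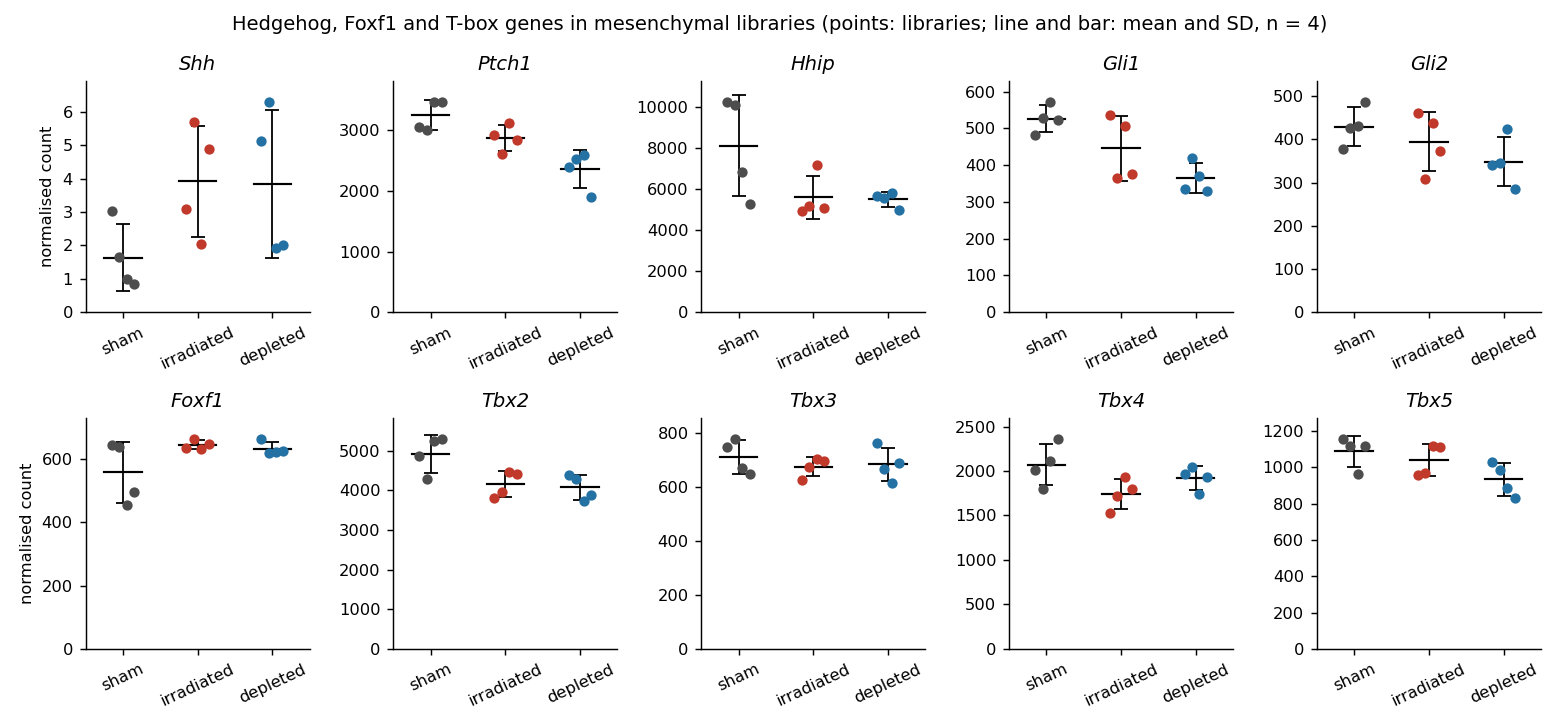
Normalised counts of the 10 genes in the 12 mesenchymal libraries, 1 panel a gene, with points for libraries and a line and bar for the mean and SD of 4 libraries. For Ptch1 and Gli1 all depleted libraries lie below all sham libraries, while Foxf1 and the T-box genes overlap between groups.

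The mean of Foxf1 in the mesenchyme was higher in treated than in sham mice, without a call. Foxf1 had 644, 638, 455 and 497 in sham mice, 636, 665, 634 and 649 in irradiated mice and 664, 619.9, 624 and 625 in depleted mice. The treated libraries lay close together, at the level of the higher pair of sham libraries. The changes were 0.23 ± 0.0962 after irradiation (adjusted p = 0.194) and 0.20 ± 0.0962 between depleted and sham (adjusted p = 0.188), and neither was called. Its divergent neighbour Fendrr, a long non-coding RNA of the lateral mesoderm, ranged over 329 to 469.6 (sham), 458 to 617 (irradiated) and 425 to 531 (depleted), a change of 0.40 ± 0.123 after irradiation (adjusted p = 0.0818).

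Of the T-box genes in the mesenchyme, Tbx2 had the highest counts. Tbx2, a repressor of cell cycle inhibitors, had 4866, 4278, 5253 and 5305 in sham mice. It had 3811, 3961, 4462 and 4413 after irradiation and 4402, 4277, 3732 and 3897 with depletion. Of the 8 treated libraries, 5 lay below the lowest sham library, which was replicate 2, and the others within the sham range. Tbx2 was lower by -0.27 ± 0.0879 in depleted than in sham mice (adjusted p = 0.049). That call lay at the threshold: it ended when any 1 of 10 of the 12 libraries was left out (adjusted p up to 0.144), among them sham replicates 1, 3 and 4 and every depleted and 3 irradiated replicates, and also with library weights and with the 2 groups alone. After irradiation the change of Tbx2 was -0.24 ± 0.0879 (adjusted p = 0.129), and among the libraries left out it was called without sham replicate 2 (-0.31, adjusted p = 0.0488).

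The transcript that starts 328 bases from Tbx2 on the other strand moved further than Tbx2. 2610027K06Rik had 156, 111, 162 and 164 in sham mice, 118, 131, 102 and 151 in irradiated mice and 89.2, 91.8, 80.2 and 67.5 in depleted mice. All depleted libraries were below all others. The change was -0.83 ± 0.154 between depleted and sham (adjusted p = 0.002), a call that held without any single library, and -0.60 ± 0.154 between depleted and irradiated (adjusted p = 0.0504).

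Tbx4, the T-box factor of lung buds and hindlimbs, ranged over 1801 to 2362 (sham), 1529 to 1932 (irradiated) and 1738 to 2041 (depleted), with -0.25 ± 0.0908 after irradiation (adjusted p = 0.131). Tbx5, its partner in lung bud formation, had 960.1 to 1156, 956 to 1117 and 829 to 1031 (-0.22 ± 0.0863 between depleted and sham, adjusted p = 0.0982). Tbx3, the close paralogue of Tbx2, had 648 to 779, 626 to 703 and 614 to 763 (-0.06 ± 0.0802 between depleted and sham, adjusted p = 0.694). All ranges of these 3 genes overlapped. The non-coding genes beside them, Tbx3os1 (99.5 to 173) and Gm43050 (39.8 to 69.0), had 0 called changes in the mesenchyme.

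Markers of alveolar fibroblasts moved with Ptch1 and Gli1. The summed level of the 11 alveolar fibroblast markers in the mesenchyme was 231420.2 to 322469 (sham), 199474 to 258739 (irradiated) and 165261 to 205725 (depleted), with 0 of the 11 at 0 in any group. Their mean log2 level was 12.3 in depleted and 12.8 in sham mice (exact two-sided permutation test, p = 0.0286, the smallest p that 4 against 4 libraries allow). The exact p-values of the marker lists are not adjusted for the 15 lists compared. The 14 pan-mesenchymal markers had a mean log2 level of 13.7 in sham, 13.6 in irradiated and 13.6 in depleted mice (exact p = 0.629 and 0.971 against sham). The 14 pan-epithelial markers in the same libraries summed to 245 to 517 (sham), 495 to 882 (irradiated) and 584 to 902 (depleted; exact p = 0.0286 for each against sham). Between depleted and sham mice the club and ciliated markers (5.67 to 6.57 in mean log2 level) and the alveolar type 1 markers (7.36 to 8.19) were higher too and the glial markers lower (4.99 to 4.67; exact p = 0.0286 for each). After irradiation the neutrophil markers (3.36 to 4.86) and leukocyte markers (4.92 to 6.17) were higher in the mesenchymal libraries (exact p = 0.0286 for each). In depleted mice these 2 lists stood at 4.58 and 5.78 (exact p = 0.486 and 0.314 against irradiated mice). The other 8 of 15 lists, the pan-mesenchymal markers among them, had an exact p of 0.0571 or more against sham. The part of these cell types in the lower Ptch1 and Gli1 was not tested.

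In the epithelial libraries, Tbx3 and Foxf1 were higher in both irradiated groups than in sham mice, each by somewhat under 1 on the log2 scale, and Hhip was higher in depleted mice. Between irradiated and sham mice 2 of 10 genes were called, both higher, against 3.14% of all genes called and 2.26% called higher. Between depleted and sham mice 3 of 10 were called, all higher, against 11.3% of all genes called and 6.52% called higher. Between depleted and irradiated mice 0 of 10 were called by limma, edgeR and DESeq2, with 0 at an unadjusted p under 0.05, against 0.475% of all genes, and 0 had groups that did not overlap, against 6.41%. The median log2 change of the 10 genes was 0.05 after irradiation, beside -0.01 over all genes.

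Foxf1, known in lung pericytes, fibroblasts and endothelial cells, had 58.5, 54.1, 48.2 and 33.3 in the epithelial libraries of sham mice. It had 77.3, 142, 70.4 and 88.4 in irradiated mice and 77.4, 106, 66.6 and 101 in depleted mice. Every treated library was above every sham library. The change was 0.92 ± 0.224 after irradiation (1.89-fold, adjusted p = 0.034) and 0.84 ± 0.224 between depleted and sham (1.79-fold, adjusted p = 0.023). The first call of Foxf1 ended when sham replicate 2, 3 or 4, or irradiated replicate 2 or 4, was left out (adjusted p up to 0.117), and that against depleted mice when sham replicate 3 or 4, or depleted replicate 2 or 4, was (up to 0.0731).

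Fendrr, whose upstream window is printed above, rose beside Foxf1. It had 45.9, 40.3, 42.0 and 22.9 in sham, 80.3, 102, 68.0 and 104 in irradiated and 78.6, 92.8, 46.3 and 58.6 in depleted mice. As for Foxf1, no treated library reached down into the sham range, although depleted replicate 3 (46.3) lay just over sham replicate 1 (45.9). The change of Fendrr was 1.23 ± 0.238 after irradiation (2.35-fold, adjusted p = 0.00805), which held without any single library, and 0.85 ± 0.238 between depleted and sham (adjusted p = 0.0296), which did not hold without sham replicate 2 or 4 or depleted replicate 1 or 2 (adjusted p up to 0.0876).

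Tbx3 had 50.7, 52.0, 60.7 and 32.3 in the epithelium of sham mice. It had 83.2, 93.0, 72.0 and 113 after irradiation and 93.1, 80.1, 62.1 and 87.3 with depletion. Here too the treated libraries were all above the sham libraries, with depleted replicate 3 just over the highest sham library. The change was 0.89 ± 0.192 after irradiation (1.85-fold, adjusted p = 0.0152) and 0.73 ± 0.192 between depleted and sham (1.66-fold, adjusted p = 0.0198). The first call of Tbx3 ended when sham replicate 4 or irradiated replicate 2 or 4 was left out (adjusted p up to 0.0664), that against depleted mice when sham replicate 4 or depleted replicate 1 or 4 was (up to 0.0676). Foxf1 and Tbx3 were the 2 of 10 genes whose groups did not overlap in either comparison with sham, against 8.83% of all genes after irradiation and 16.7% between depleted and sham. Tbx3os1 on its other strand had 2.08 to 15.6 and was not tested.

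Hhip had 89.8, 98.7, 82.2 and 55.2 in the epithelial libraries of sham mice, 129, 136, 98.7 and 96.5 in irradiated mice and 138, 123, 97.1 and 123 in depleted mice. The ranges touched around the highest sham library. The change was 0.51 ± 0.173 after irradiation, which was not called (adjusted p = 0.132), and 0.58 ± 0.173 between depleted and sham (1.49-fold, adjusted p = 0.0381). That call of Hhip ended without sham replicate 3 or 4 or depleted replicate 1, 2 or 4 (adjusted p up to 0.12).

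**Figure D3:**
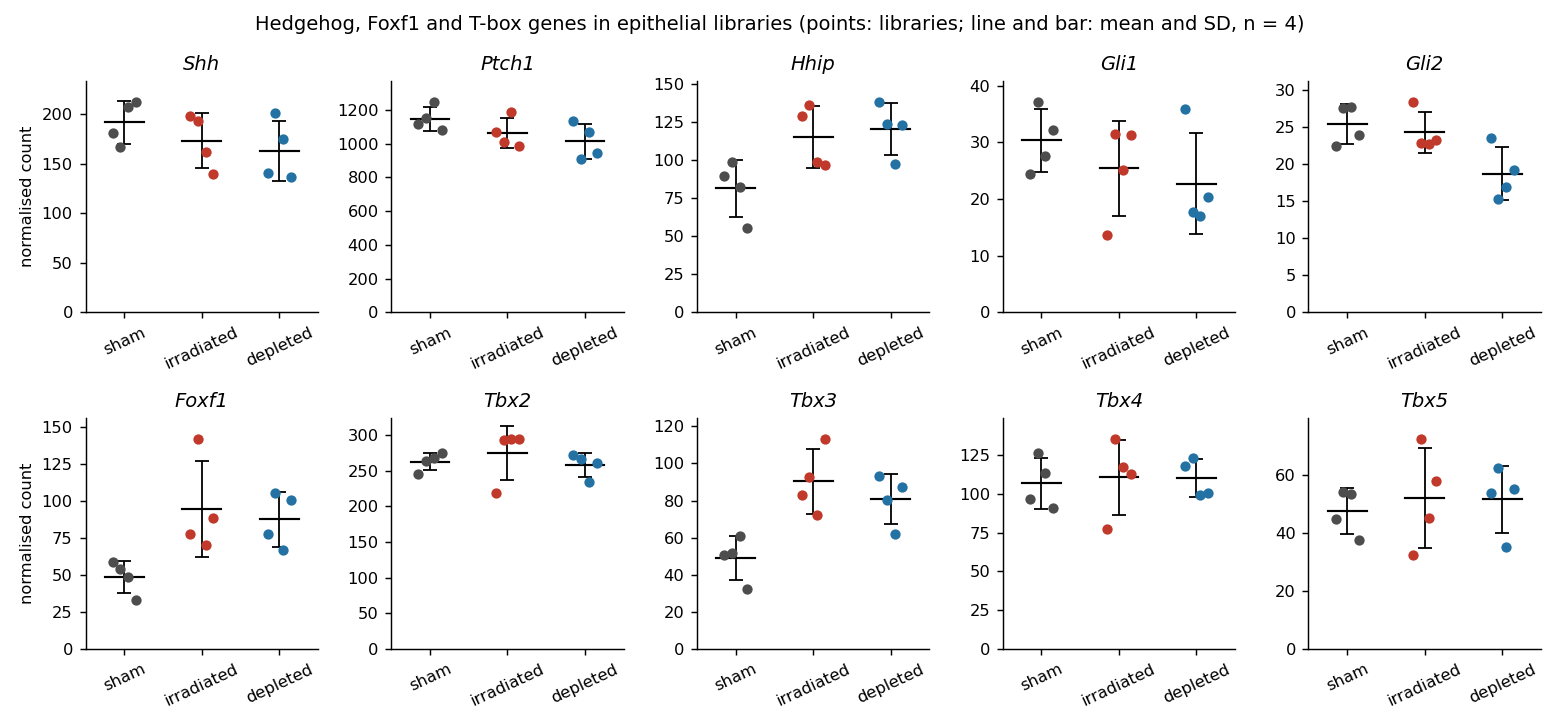
Normalised counts of the 10 genes in the 12 epithelial libraries, 1 panel a gene, with points for libraries and a line and bar for the mean and SD of 4 libraries. Foxf1 and Tbx3 lie higher in every treated library than in every sham library, while Shh, Ptch1, Tbx2, Tbx4 and Tbx5 overlap between groups.

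Markers of other cell types moved with Foxf1, Fendrr and Tbx3 in the epithelial libraries. The summed level of 19 endothelial markers was 2050.3 to 2691 (sham), 3036 to 5058 (irradiated) and 3019.9 to 4307 (depleted), with 0 of the 19 at 0 in any group (exact two-sided permutation test of the mean log2 level, p = 0.0286 for either treated group against sham). The 9 pericyte markers summed to 356 to 423 (sham), 477 to 743 (irradiated) and 505 to 613 (depleted; exact p = 0.0286 for each). The 14 pan-mesenchymal markers had a mean log2 level of 9.38 in sham, 9.62 in irradiated (exact p = 0.0571) and 9.74 in depleted mice (exact p = 0.0286). The 8 mesothelial markers summed to 1072 to 1404 (sham), 1108 to 2164 (irradiated) and 1469 to 2924 (depleted; exact p = 0.114 and 0.0286). The 10 adventitial fibroblast markers had a mean log2 level of 6.68 in sham, 7.26 in irradiated and 7.34 in depleted mice (exact p = 0.0286 for each against sham). Their summed levels overlapped, at 3562 to 4013 (sham), 3530 to 4314 (irradiated) and 3648 to 4177 (depleted). Neutrophil markers (8, of which 1 was at 0 in all sham libraries) stood at 1.86, 4.01 and 4.01 in mean log2 level (exact p = 0.0286 for each), and the 12 leukocyte markers at 4.14, 5.56 and 5.26 (exact p = 0.0286 and 0.0571). The leukocyte sums overlapped as well, at 2876 to 3218 (sham), 3057 to 3947 (irradiated) and 2313 to 3194 (depleted). Other lists were lower in mean log2 level: the 11 alveolar fibroblast markers stood at 9.53, 9.43 and 9.28 (exact p = 0.457 and 0.0286), and the pan-epithelial markers at 10.3, 10.2 and 10.2 (exact p = 0.0286 and 0.2). The other 6 of 15 lists had an exact p of 0.0857 or more against sham. Here too the exact p-values are not adjusted for the 15 lists, and 0.0286 is the smallest possible. Sham replicate 4 had both the lowest endothelial sum and the lowest Foxf1, Fendrr, Tbx3 and Hhip of its group, and was lowest for 6 of the 10 genes. Irradiated replicate 2 had the highest endothelial sum and the highest Foxf1 and Hhip, while Tbx3 (113) and Fendrr (104) were highest in irradiated replicate 4. The part of these cells in the higher Foxf1, Fendrr, Tbx3 and Hhip was not tested.

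The remaining genes had overlapping ranges across the 3 groups of the epithelium. Ptch1 ranged over 1079 to 1248 (sham), 988 to 1189 (irradiated) and 909 to 1133 (depleted), with -0.18 ± 0.076 between depleted and sham (adjusted p = 0.139). Gli1 had 13.7 to 37.1 and Gli2 15.3 to 28.4 over all 12 libraries. At these low counts their changes between depleted and sham were -0.45 ± 0.285 and -0.43 ± 0.21 (adjusted p = 0.355 and 0.212). Tbx2 had 218 to 295, Tbx4 77.3 to 136 and Tbx5 32.3 to 72.5 over all libraries, with log2 changes between -0.08 and 0.10 in every comparison.

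**Figure D4:**
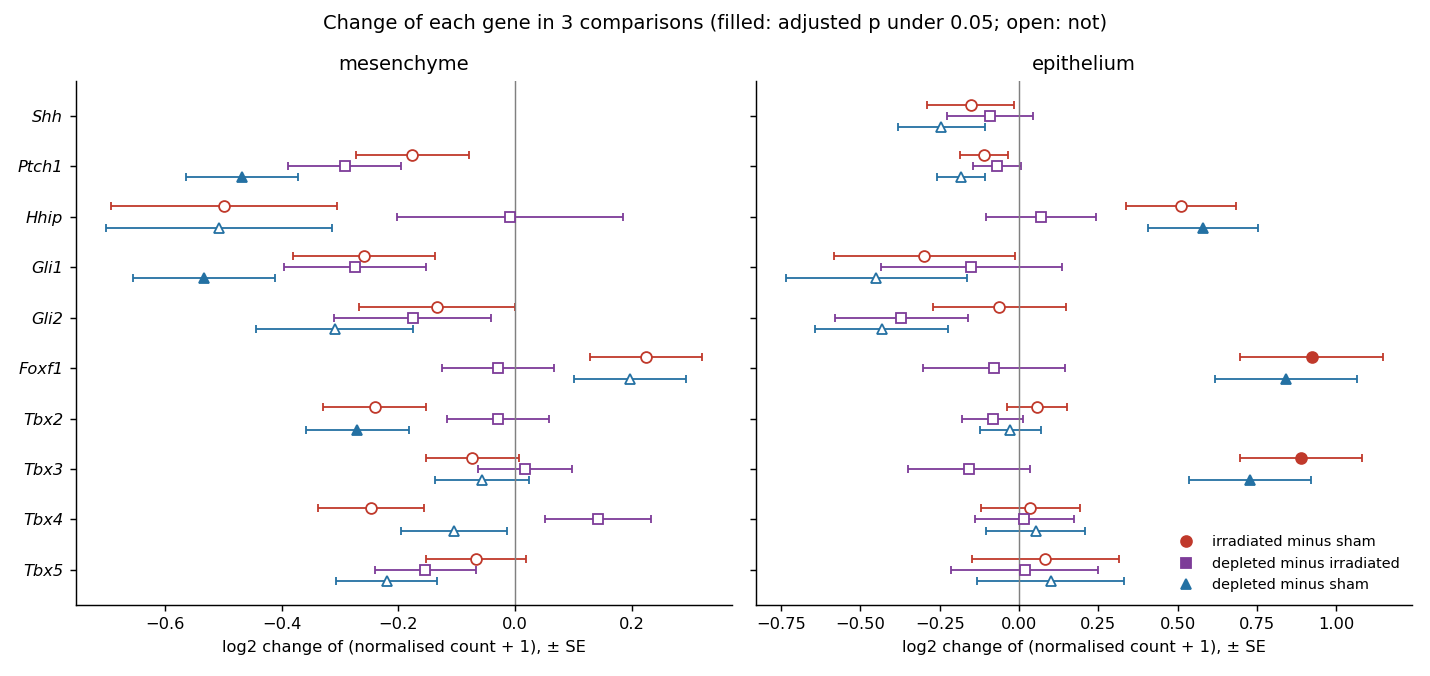
Log2 change with its SE for each gene in the 3 comparisons, mesenchyme left and epithelium right, on separate axes; filled symbols have an adjusted p under 0.05, and Shh was not tested in the mesenchyme. Filled symbols are on the lower side in the mesenchyme (Ptch1, Gli1, Tbx2) and on the higher side in the epithelium (Foxf1, Tbx3, Hhip), and all symbols for depleted against irradiated are open.

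The response to irradiation was also tested for a difference between the fractions, in a fit of all 24 libraries over 15092 genes. Of the 9 genes tested, 1 was called, against 0.629% of all genes. Tbx3 was higher after irradiation in the epithelial libraries and not in the mesenchymal ones (log2 change in the mesenchyme of -0.117 to -0.0284 with 1 library left out). The difference of its log2 changes was 0.96 ± 0.215 (adjusted p = 0.0358). Its call ended without any 1 of 9 of the 24 libraries (adjusted p up to 0.084): epithelial sham replicates 1 and 4, irradiated replicates 2 and 4 and depleted replicate 2, and mesenchymal sham replicates 1 and 3 and irradiated replicates 1 and 2. The difference was 1.01 ± 0.285 for Hhip, whose log2 change was 0.51 in the epithelium and -0.50 in the mesenchyme, and was not called (adjusted p = 0.107); among the fits that left out 1 library it was called without mesenchymal sham replicate 4 (adjusted p = 0.0434). With same-numbered libraries of both fractions as a block, the Hhip difference was called, as given below. For Foxf1 the difference was 0.70 ± 0.264 (adjusted p = 0.227). Endothelial and pericyte markers were also higher in the irradiated epithelial libraries, as given above. The part of such cells in the differences of Tbx3, Hhip and Foxf1 was not tested. The effect of depletion in irradiated mice differed between fractions for 0 of 9 genes (limma; 0 also at an unadjusted p under 0.05; edgeR and DESeq2 were not run on this difference), against 0.596% of all genes.

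Around these 10 genes, 32 further genes of the Hedgehog pathway were followed. In the mesenchyme 28 of them were tested. Scube1 rose and Scube2 fell; both belong to the Scube family, whose members take part in releasing the lipid-modified ligand from cells. Scube1 ranged over 194.7 to 248.6 (sham), 274 to 367 (irradiated) and 320.3 to 488 (depleted), a change of 0.52 ± 0.127 after irradiation (adjusted p = 0.0357) and 0.85 ± 0.127 between depleted and sham (adjusted p = 0.000444). Scube2 ranged over 4099 to 6010.4, 3127 to 3826 and 2004 to 3756, with -0.90 ± 0.165 between depleted and sham (adjusted p = 0.00308). Cul3, a scaffold of the ligase that degrades Gli proteins, was lower by -0.26 ± 0.0836 (adjusted p = 0.0456). In counts, 1 rose and 0 fell after irradiation, 0 changed between depleted and irradiated mice (0 with edgeR and DESeq2; 4 at an unadjusted p under 0.05), and 1 rose and 2 fell between depleted and sham. Of all genes tested in the mesenchyme, 3.80%, 2.69% and 15.2% were called in these 3 comparisons, in the same order. The median log2 change of the 28 between depleted and sham was -0.12, beside -0.01 over all genes. The calls of Scube1 and Scube2 between depleted and sham held without any single library, whereas Scube1 after irradiation and Cul3 did not without 5 and 8 of the 12 (adjusted p up to 0.106 and 0.145). The Cul3 call was also lost with no filter, with a replicate block and with the 2 groups alone.

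**Figure D5:**
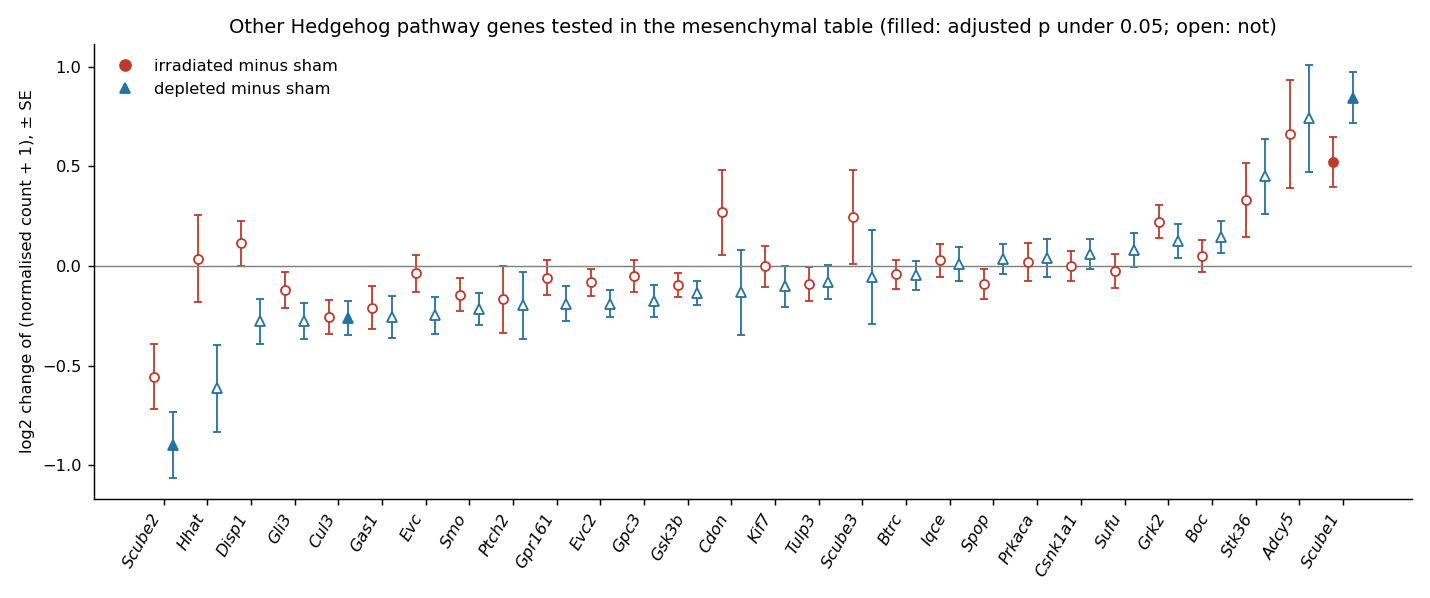
Log2 change with its SE of the 28 other Hedgehog pathway genes tested in the mesenchyme, for irradiated against sham and depleted against sham, ordered by the latter; filled symbols have an adjusted p under 0.05. Scube2 and Scube1 stand at the 2 ends of the order, and most genes between them lie below 0 for depleted against sham without being called.

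In the epithelium 29 of the 32 were tested. None was called after irradiation by limma or edgeR (1 by DESeq2; 4 at an unadjusted p under 0.05), and none between depleted and irradiated mice by any of the 3 tools (3 at an unadjusted p under 0.05). In depleted against sham mice 3 rose and 1 fell with limma, and edgeR and DESeq2 called 3 each. Of all genes tested in the epithelium, limma called 3.14% after irradiation, 0.475% between depleted and irradiated and 11.3% between depleted and sham. Gpc3, a glypican that competes for the ligand, rose by 0.72 ± 0.12 (adjusted p = 0.00205) and Gas1, a co-receptor, by 0.76 ± 0.181 (adjusted p = 0.011). Scube1 rose by 0.93 ± 0.288 (adjusted p = 0.0443), and Scube2 was lower by -0.79 ± 0.148 (adjusted p = 0.00334). The Scube1 call ended without 9 of the 12 libraries (adjusted p up to 0.136). It was also lost with edgeR, with DESeq2, with no filter and with replicate number as a block. Between depleted and sham mice Scube1 and Scube2 had opposite signs in both fractions. The other ligands were close to the limit of 0 reads: Ihh had 4.24 to 12.3 in the epithelium and Dhh 0.827 to 14.2 in the mesenchyme.

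Of 12 other T-box genes with a symbol match, 3 were tested in the epithelium and 4 in the mesenchyme, and 0 were called in any comparison by limma, edgeR or DESeq2 (1 at an unadjusted p under 0.05 in the epithelium between depleted and irradiated, and 1 in the mesenchyme between depleted and sham). The shares of all genes called in each comparison are those given above. Tbx1 of this list is also among the endothelial markers.

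Of 26 other regulators of lung mesenchyme, all 26 were tested in the mesenchyme. Foxf2, the paralogue of Foxf1, fell after irradiation, from 713 ± 78.0 in sham to 512 ± 59.4 (-0.48 ± 0.0986, adjusted p = 0.0154; not called without 2 of the 12 libraries, up to 0.0672). It was at 468 ± 41.9 in depleted mice (-0.60 ± 0.0986 against sham, adjusted p = 0.000779). Foxf1 itself had no called change in the mesenchyme, as given above. Between depleted and sham mice 2 rose and 5 fell, and the 4 of largest change were Wt1, a mesothelial factor (1.15 ± 0.342, adjusted p = 0.0359), Meox2 (-0.80 ± 0.184, adjusted p = 0.0124), Foxf2 and Osr1 (0.53 ± 0.103, adjusted p = 0.00288). Wt1 is also in the mesothelial marker list, and its call ended without 4 of the 12 libraries (up to 0.11) and with no filter. Between depleted and irradiated mice 0 of 26 were called by any of the 3 tools (6 at an unadjusted p under 0.05). The share of all genes called there was 3.80% after irradiation, 15.2% between depleted and sham and 2.69% between depleted and irradiated.

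In the epithelium 18 of the regulators were tested. After irradiation 0 were called by any tool (4 at an unadjusted p under 0.05), and between depleted and irradiated mice Osr1 rose by 1.18 ± 0.22 (adjusted p = 0.0202; not called without 2 of the 12 libraries, up to 0.0682). That Osr1 call was also lost with the 2 groups alone. In depleted against sham mice Osr1 (1.08 ± 0.22, adjusted p = 0.00422) and Wt1 (2.24 ± 0.454, adjusted p = 0.00693) rose, and Nr2f2 (-0.41 ± 0.0966, adjusted p = 0.0101) and Foxp4 (-0.27 ± 0.0825, adjusted p = 0.043) fell. The Foxp4 call ended without 9 of the 12 libraries (up to 0.133). Among all genes of the epithelium, 3.14% were called after irradiation, 0.475% between depleted and irradiated and 11.3% between depleted and sham.

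The last list holds 20 signals and cell cycle genes tied to these factors in lung development, 18 tested in the mesenchyme and 16 in the epithelium. Cdkn1a, the cell cycle inhibitor p21 that T-box repressors and p53 act on, rose most. It went from 618 ± 98.4 in sham to 2659 ± 306 in irradiated and 3261 ± 485 in depleted mice in the mesenchyme (2.11 ± 0.121 and 2.40 ± 0.121 against sham, adjusted p = 2.1e-07 and 2.07e-08). In the epithelium it rose by 2.66 ± 0.187 and 2.90 ± 0.187 (adjusted p = 3.7e-05 and 1.06e-05). After irradiation Ccnd1 (1.14 ± 0.169, adjusted p = 0.00144) and Icam1 (0.75 ± 0.115, adjusted p = 0.00208) rose too in the mesenchyme, and 0 fell. In the epithelium Ccnd2 rose (0.24 ± 0.0613, adjusted p = 0.041) and Wnt2b fell (-0.48 ± 0.125, adjusted p = 0.0448), both calls that ended without 8 of the 12 libraries (up to 0.134 and 0.135). Both were also lost with no filter, with a replicate block and with the 2 groups alone. After irradiation 3.80% of all genes were called in the mesenchyme and 3.14% in the epithelium.

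Of that list, 2 genes were higher and 0 lower in depleted than in irradiated mice in the mesenchyme. Spry2, an inhibitor of Fgf signalling, stood at 413 ± 28.4 in irradiated and 622 ± 46.1 in depleted mice (0.59 ± 0.0806, adjusted p = 0.000907). Sfrp1, a secreted Wnt inhibitor, stood at 679 ± 92.9 and 1192 ± 221 (0.80 ± 0.173, adjusted p = 0.0312; not called without 6 of the 12 libraries, up to 0.11). That Sfrp1 call was also lost with no filter and with a replicate block. Against sham, 5 rose and 2 fell in the depleted mesenchyme, and the 4 of largest change were Cdkn1a, Sfrp1 (1.40 ± 0.173, adjusted p = 0.000247), Wnt2, a mesenchymal Wnt ligand (-0.84 ± 0.191, adjusted p = 0.0122), and Icam1 (0.76 ± 0.115, adjusted p = 0.00044). Wnt2 is also an alveolar fibroblast marker. Of all genes in the mesenchyme, 2.69% were called between depleted and irradiated and 15.2% between depleted and sham. These shares were 0.475% and 11.3% in the epithelium. In the epithelium 0 were called between depleted and irradiated mice by limma or edgeR (2 by DESeq2; 5 at an unadjusted p under 0.05), and Sfrp1 (1.14 ± 0.201, adjusted p = 0.00147) and Cdkn1a rose between depleted and sham.

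Among the 12 mesenchymal libraries, with group means removed, 8 pairs of the genes were compared by correlation. The smallest Pearson p was that of Foxf1 and Gli1, whose r was negative (r = -0.355, exact permutation p = 0.0142, adjusted 0.113; rho = -0.587, p = 0.0169, adjusted 0.0629; r = -0.222 without the 2 libraries farthest from the median of Foxf1). For Gli1 and Ptch1 the values were positive (Pearson r = 0.602, exact permutation p = 0.0369, adjusted 0.14; Spearman rho = 0.678, p = 0.0236, adjusted 0.0629), and r was 0.621 without the 2 libraries farthest from the median of Gli1. They were positive for Gli1 and Gli2 as well (r = 0.708, exact permutation p = 0.0524, adjusted 0.14; rho = 0.797, p = 0.0211, adjusted 0.0629; r = 0.527 without 2 libraries). Gli1 and Hhip had values near 0 (r = 0.0694, exact permutation p = 0.821; rho = -0.014, p = 0.974). The other 4 pairs had a Pearson r from -0.463 to 0.35, each with an exact permutation p of 0.304 or more. None of the 8 pairs passed after adjustment for the 8, and both values of a point come from 1 library and share its depth and size factor.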

How the data were processed

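Total RNA of the sorted cells was sequenced after ribosomal RNA removal, per the labels' protocols. The submitters' processing notes name cutadapt 1.5, STAR 2.2.2a, SAMtools 1.8, RSEM 1.3.0, DESeq2 without a version, and the build GRCm38. The annotation release and the strand setting are not given in the sources used here. The deposited tables, 1 for each fraction, hold a normalised signal: in them 100% of the values were whole multiples of what 1 read is worth in that library, within 0.001. The reads recovered this way gave the depths and entered edgeR and DESeq2 as alternatives.

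Values were tested with limma (trend and robust settings) on log2(value + 1), all 3 groups of a table in 1 fit, keeping genes at 10 or more in 4 or more of the 12 libraries (16626 genes in the epithelium, 16624 in the mesenchyme, 15092 in the fit of both). On this scale the change of low genes is understated. Genes were called at a Benjamini-Hochberg adjusted p under 0.05 over all genes tested. Marker lists were compared with exact permutation tests, without adjustment for the number of lists. The p-values measure the spread between libraries, and floors of 3 reads cover counting error only. Symbols came from GENCODE M21 on GRCm38, with 48349 of 48795 identifiers matched. R 4.3.3, limma 3.58.1, edgeR 4.0.16, DESeq2 1.42.0, Python 3.11.15, NumPy 2.4.6, pandas 2.3.3 and SciPy 1.17.1 were used, and the fits were tested on simulated data.

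The genes and lists were chosen with earlier results of these data known. Named are all 10 genes, their opposite-strand neighbours that overlap them or start within 5 kb, and, in each list, every called gene where up to 6 were called in a comparison, otherwise the 4 of largest change. The lists are the Hedgehog pathway (32 genes), other T-box genes (12 of 13 matched), other regulators of lung mesenchyme (26 of 27 matched) and signals tied to these factors (20 genes). The share relative to pan-mesenchymal markers and the longest-transcript length were added after seeing the data. Alternatives were another pseudocount, filter, scaling, tool or design and leaving out each library.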

Additional observations from a re-analysis of the deposited data

Results flagged for a closer look

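In 4 of the 60 groups of 4 libraries formed by the 10 genes, 1 library stood apart from the rest by a gap above Dixon's 95% critical value; chance flags about 1 in 20 groups. Tbx2 in the epithelium of irradiated mice was lowest in replicate 1, at 218. Gli2 in the same group was highest in that replicate, at 28.4. Hhip in the mesenchyme of irradiated mice was highest in replicate 3, at 7186. Foxf1 in the mesenchyme of depleted mice was highest in replicate 1, at 664, in a group whose other libraries lay between 619.9 and 625.

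The change of Tbx3 after irradiation differed between epithelium and mesenchyme by 0.96 on the log2 scale in a test of the difference itself (limma with Benjamini-Hochberg adjustment, adjusted p = 0.0358).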

How the results depend on the processing

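Over all alternatives for the log2 changes of the 10 genes and their differences between fractions, 1651 values kept direction and side of the threshold, 42 lost a call, 7 gained one and 52 changed sign; the cause was not tested. No sign change touched a called value. Leaving out 1 library gave 0 to 2 called genes in the epithelium after irradiation, 0 to 3 there between depleted and sham, 0 to 1 in the mesenchyme after irradiation, and 0 to 2 for the difference between fractions. Deviations of same-numbered libraries, irradiated and sham, correlated by r of -0.111 to 0.152 within the epithelium and -0.0523 to 0.172 within the mesenchyme. Between fractions r was -0.0304 to 0.114 (sham), 0.0603 to 0.255 (irradiated) and -0.0367 to 0.130 (depleted). Between fractions, sham replicate 2 and irradiated and depleted replicates 2, 3 and 4 correlated best with their own number, seen from either fraction. Not every pair passed 0.1 and not every library correlated best with its own number, so the main fits assumed no pairing. Whether the numbers mark a shared mouse between fractions is not stated. With the replicate block the difference between fractions had 2 called genes, Tbx3 and Hhip (Hhip adjusted p = 0.0270), and the Tbx2 call in the mesenchyme was lost.

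Small changes turned sign. For depleted against irradiated epithelium, Tbx4 was -0.00266 with upper-quartile scaling, -0.0160 with library weights, -0.0198 with edgeR and -0.0164 with DESeq2, and Tbx5 -0.00164, -0.0780, -0.0327 and -0.0276. Tbx3 in the mesenchyme was -0.0111 with upper-quartile scaling, and the Gli1 difference between fractions after irradiation 0.0268 with a pseudocount of 8. Leaving out 1 library gave, in the epithelium after irradiation, Tbx4 -0.0705 to 0.20 and Tbx5 -0.0950 to 0.29. For depleted against irradiated epithelium it gave Tbx4 -0.14 to 0.12, Tbx5 -0.19 to 0.19, Foxf1 -0.20 to 0.13 and Hhip -0.00948 to 0.17. For depleted against sham epithelium it gave Tbx2 -0.0588 to 0.0201, Tbx4 -0.0219 to 0.14 and Tbx5 -0.00677 to 0.27. For depleted against irradiated mesenchyme it gave Tbx2 -0.0707 to 0.0118, Tbx3 -0.0377 to 0.0672 and Hhip -0.0619 to 0.12. Differences between fractions were, after irradiation, Tbx5 -0.0284 to 0.35, Gli1 -0.16 to 0.22 and Gli2 -0.0429 to 0.15, and with depletion Tbx5 -0.0321 to 0.35, Foxf1 -0.17 to 0.16, Gli1 -0.14 to 0.25 and Hhip -0.0485 to 0.18.

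Counts over all genes moved by over 1.5 times in places: after irradiation 522 in the epithelium (964 with library weights, 816 with DESeq2) and 631 in the mesenchyme (1048 with the block, 1055 with DESeq2), between depleted and irradiated 79 (52 at a mean of 50 or more, 288 with DESeq2, 32 with the 2 groups alone) and 448 (792 with DESeq2, 291 with the 2 groups alone), and for the differences 95 (218 with the block) and 90 (59 with no filter). Counts of Gli1, Gli2 and Foxf1 in the epithelium limit what could be seen there.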
